A study of Mus musculus with 15 samples.

Results

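Transcripts of 8 potassium channel genes of blood vessels were followed: Kcna2, Kcna5, Kcnma1, Kcnmb1, Kcnj2, Kcnj8, Abcc9 and Kcnk3. Members were chosen by name, as all probe sets annotated to 1 of these symbols and to no other, which gave 20 of the 45101 probe sets and 8 of the 18194 genes named on the array. A probe set is a group of short probes that together report 1 transcript. Kcna2 had 4 probe sets, Kcna5 1, Kcnma1 5, Kcnmb1 2, Kcnj2 1, Kcnj8 1, Abcc9 3 and Kcnk3 3. The main probe set of a gene was its brightest over all 15 arrays.

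All samples came from male C57BL6J mice 10 to 12 weeks old, and every mouse lacked at least 1 intact copy of Notch3, a receptor best known from the mural cells of vessels, that is smooth muscle and pericytes. Cells sorted from brain by FACS and labelled SMC/pericyte were profiled from 5 Notch3 -/- and 4 Notch3 +/- mice, and aorta explants gave 3 Notch3 -/- and 3 Notch3 +/- arrays on the same Affymetrix mouse design. Each genotype comparison therefore sets no copy of Notch3 against 1 copy, and wild-type mice were not analysed here. Separate mice are stated for brain but not for aorta, where p-values may reflect technical spread alone. The replicate names are those of the titles: A, B, C, D and F for brain -/-, E, G, I and H for brain +/-, and 4-digit numbers in aorta.

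Potassium leaving a smooth muscle cell through open channels makes the membrane potential more negative, closes voltage-gated calcium channels and relaxes the vessel wall. Kcna2 and Kcna5 encode Kv1.2 and Kv1.5, pore subunits that open on depolarisation; Kcnma1 and Kcnmb1 encode the pore and the smooth muscle beta1 subunit of the BK channel, which opens with calcium and voltage. Kcnj8 (Kir6.1) and Abcc9 (SUR2) together form the vascular KATP channel, and both are known as transcripts of brain pericytes. Kcnj2 encodes the inward rectifier Kir2.1, and Kcnk3 the acid-sensitive background channel TASK-1. Notch receptors act on genes through the DNA-binding protein RBPJ, whose core site reads TGGGAA, or TTCCCA on the opposite strand.

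Start-site windows from RefSeq (assembly GRCm38.p6, 250 bases before to 50 after the start of the gene) were found for 7 of the 8 members, all but Kcnk3. The RBPJ core occurred on either strand in 5 of these 7 windows and in 25.6% of all 32851 windows of that length. The CArG box of serum response factor, searched on both strands, occurred in 0 of the 7 and in 1.63% of all windows. The window of Kcna5 is shown because Kcna5 had the largest difference between genotypes in brain at a main probe set, and those of Kcnj8 and Abcc9 because these genes are neighbours on chromosome 6 with 0 genes between them and encode the partners of 1 channel. Each runs 5′ to 3′ on the gene's strand, with the RBPJ core in capitals. A match is a string of letters and not a shown binding site.
Kcna5, chr6:126535506-126535805, minus strand: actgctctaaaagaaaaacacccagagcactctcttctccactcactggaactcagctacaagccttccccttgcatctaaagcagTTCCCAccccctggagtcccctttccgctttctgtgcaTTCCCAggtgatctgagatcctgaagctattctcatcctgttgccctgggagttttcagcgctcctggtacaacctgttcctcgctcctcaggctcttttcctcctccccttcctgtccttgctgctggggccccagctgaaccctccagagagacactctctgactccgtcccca
Kcnj8, chr6:142571565-142571864, minus strand: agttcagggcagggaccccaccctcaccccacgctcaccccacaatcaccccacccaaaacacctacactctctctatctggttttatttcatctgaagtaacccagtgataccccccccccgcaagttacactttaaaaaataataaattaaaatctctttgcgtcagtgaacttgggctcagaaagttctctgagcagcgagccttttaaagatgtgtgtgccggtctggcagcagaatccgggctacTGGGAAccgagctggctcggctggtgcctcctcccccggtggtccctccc
Abcc9, chr6:142702225-142702524, minus strand: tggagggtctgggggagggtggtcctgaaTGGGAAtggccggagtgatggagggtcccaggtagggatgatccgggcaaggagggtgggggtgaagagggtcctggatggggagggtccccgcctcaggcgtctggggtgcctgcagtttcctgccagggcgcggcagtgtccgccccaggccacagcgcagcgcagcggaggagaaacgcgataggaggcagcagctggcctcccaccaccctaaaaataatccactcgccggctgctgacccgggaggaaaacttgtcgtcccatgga
The Kcna5 window held 2 matches, 164 and 126 bases before the start. The Kcnj8 match lay at the start itself and the Abcc9 match 221 bases before it. Kcnmb1 held matches 27 and 41 bases after its start, Kcnj2 held 1 at 33 bases after its start, and the windows of Kcna2 and Kcnma1 held none.

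Values are probe-set intensities that the authors scaled to a target of 150 on each array, so brightness can be set between arrays for 1 probe set but not between probe sets. The 44 probe sets of olfactory receptor genes served as a measure of background, and their 95th percentile lay between 41.2 and 110 over the 15 arrays. It was higher on every brain array (69.0 to 110) than on any aorta array (41.2 to 55.8). The part of this gap in the tissue differences of dim probe sets was not tested. A member at or under that value on its own array is called at background below. Notch3, at its brightest probe set, lay between 150 and 249 in brain -/- arrays and between 2326 and 2805 in brain +/- arrays (log2 difference -3.56, limma, adjusted p = 4.31e-08). In aorta it lay between 80.1 and 146 in -/- arrays, against 362 to 453 in +/- arrays (log2 -1.78, limma, adjusted p = 0.135). Of the smooth muscle markers, 6 of 6 were above background on every brain -/- array and 5 of 6 on every brain +/- array, and the brain arrays also carried markers of other cells, among them 8 of 8 of astrocytes, 7 of 9 of endothelium and 4 of 5 of oligodendrocytes on every array of each genotype. On every aorta array 6 of 6 fibroblast markers were above background. Their sums were at least 26063 in aorta and at most 5510 in brain. Of 5 adipocyte markers, 3 were above background on every aorta -/- and 4 on every aorta +/- array, against 0 in brain. Of the 8 pericyte and mural markers, Anpep alone was at background on every brain array. The part of this mix of cells in the tissue differences was not tested. Correlation between replicates ran between 0.932 and 0.981.

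Both subunits of the KATP channel were above background on all 15 arrays, and they ran in opposite directions between the tissues. The main probe set of Abcc9, the SUR2 subunit (1435752_s_at), read 902, 1367, 1898, 1733 and 1834 on the brain -/- arrays and 997, 1676, 2456 and 2035 on the brain +/- arrays. In aorta it read 4976, 4630 and 4744 on -/- arrays and 4493, 4618 and 4669 on +/- arrays. Every aorta array lay above every brain array, and the genotypes overlapped within each tissue. Kcnj8, the Kir6.1 pore (1418142_at), ran the other way between tissues, with 1405, 1906, 2326, 2418 and 2604 on brain -/- arrays and 1210, 1849, 2069 and 1809 on brain +/- arrays. Its aorta values were 1020, 928 and 751 on -/- arrays and 789, 891 and 564 on +/- arrays. All brain arrays were above all aorta arrays, and the genotypes again overlapped.

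**Figure D1:**
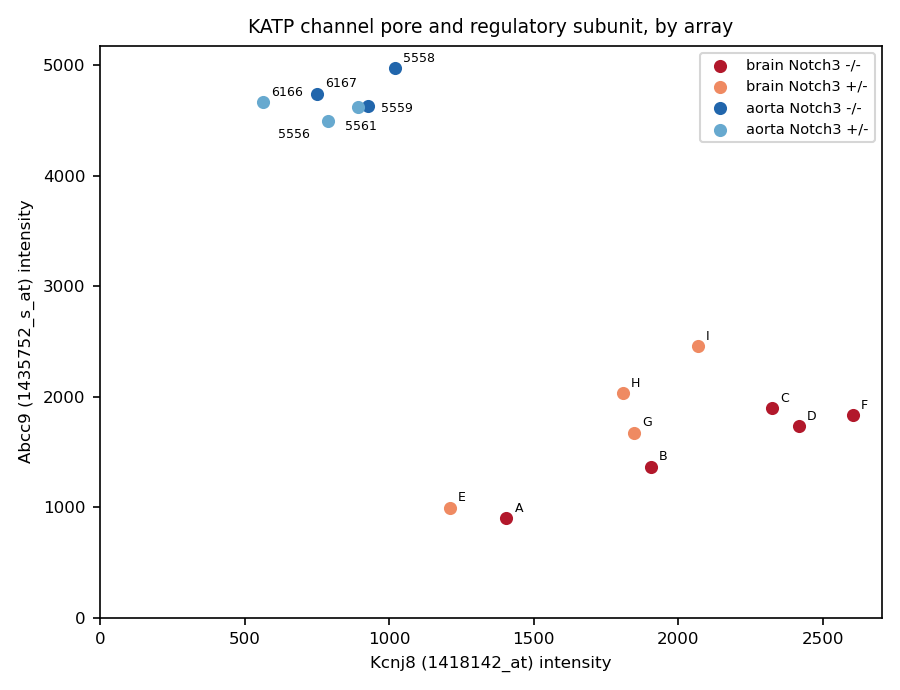
Intensity of Kcnj8 (horizontal axis) against Abcc9 (vertical axis) on linear axes, 1 point per array, coloured by tissue and genotype and labelled with the replicate name. The 6 aorta arrays sit at high Abcc9 and low Kcnj8, the 9 brain arrays at lower Abcc9 and higher Kcnj8, and brain arrays A (-/-) and E (+/-) are the lowest brain arrays on both axes.

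The tissue difference of both KATP subunits was larger than the spread between replicates in each genotype. Abcc9 was 3.18-fold lower in brain than in aorta among -/- arrays (log2 -1.67, SE 0.21, limma, adjusted p = 9.55e-06) and 2.68-fold lower among +/- arrays (log2 -1.42, SE 0.26, adjusted p = 0.000960). Kcnj8 was 2.31-fold higher in brain among -/- arrays (log2 1.21, SE 0.19, limma, adjusted p = 7.97e-05) and 2.29-fold higher among +/- arrays (log2 1.19, SE 0.22, adjusted p = 0.000982). A second Abcc9 probe set, 1435751_at, was also lower in brain in both genotypes (log2 -1.74 in -/- and -1.39 in +/-). The third, 1420408_a_at, was lower in -/- arrays (log2 -1.47), while in +/- arrays its value of -0.54 did not pass (limma, adjusted p = 0.399). On that probe set the brain +/- arrays were far apart, at 99.0, 212, 502 and 764 for E, G, I and H, and spanned the aorta +/- values of 436, 497 and 426. The summed level of the 8 pericyte and mural markers ran between 23783 and 30345 in brain -/-, 27488 and 55276 in brain +/-, 14243 and 15549 in aorta -/- and 12981 and 15067 in aorta +/-, and its part in the KATP values was not tested. Notch3 itself is among the 8, at 150 to 249 in brain -/- and 2326 to 2805 in brain +/- arrays. The sums therefore differ between genotypes in part through the deleted gene, and bright probe sets weigh most in them. In RNA of mixed cells, fewer cells of a type and less RNA per cell cannot be told apart.

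At their main probe sets both subunits of the BK channel were lower in brain than in aorta, and the pore was near background in brain, while their other probe sets that passed the filter showed no such call. Kcnma1, the pore (main probe set 1428948_at), read 58.5, 66.2, 52.6, 78.5 and 58.6 in brain -/-, and 92.4, 78.6, 83.9 and 95.4 in brain +/-. In aorta it read 487, 500 and 524 in -/- and 427, 423 and 438 in +/-. None of the 4 groups overlapped: aorta -/- was highest, then aorta +/-, then brain +/-, then brain -/-. The closest brain arrays of opposite genotype differed by less than 0.1 (78.54 in -/-, 78.60 in +/-). Of all genes tested, 62.9% in -/- and 58.8% in +/- arrays did not overlap between tissues. Between genotypes this held for 9.28% in aorta and 3.59% in brain, and no share was computed for all 4 groups together. Kcnma1 was above background on all 6 aorta arrays but on only 1 brain -/- and 1 brain +/- array. Kcnmb1, the beta1 subunit (main probe set 1421400_at), read 120, 143, 119, 109 and 84.4 in brain -/- and 166, 119, 152 and 183 in brain +/-, against 452, 495 and 350 in aorta -/- and 455, 478 and 404 in aorta +/-. It was above background on all 15 arrays, and every aorta array lay above every brain array.

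Between tissues, Kcnma1 was 6.63-fold lower in brain than in aorta among -/- arrays (log2 -2.73, SE 0.15, limma, adjusted p = 4.83e-09) and 4.31-fold lower among +/- arrays (log2 -2.11, SE 0.16, adjusted p = 1.70e-06). Kcnmb1 was 3.42-fold lower among -/- arrays (log2 -1.77, SE 0.17, limma, adjusted p = 1.16e-06) and 2.72-fold lower among +/- arrays (log2 -1.44, SE 0.18, adjusted p = 6.12e-05). Because Kcnma1 was mostly at background in brain, its folds rest on a brain level that the array could not separate from background. The other Kcnma1 probe sets were dim, between 8.01 and 101 over the 15 arrays. Of these, 1440728_at was above background on 4 arrays, 1425987_a_at on 4, 1457018_at on 5 and 1424848_at on 0. Between tissues, 1440728_at differed by 0.46 in -/- and 0.50 in +/- arrays (brain minus aorta, limma, adjusted p = 0.104 and 0.113), the opposite sign to the main probe set, and without brain -/- array F it was called higher in brain in -/- arrays (log2 0.59, adjusted p = 0.0292). The values of 1425987_a_at were -0.18 and 0.14 (adjusted p = 0.473 and 0.731), while 1457018_at and 1424848_at did not pass the filter on dim probe sets in this comparison. Without the filter 1457018_at gave -0.93 in -/- and -0.65 in +/- arrays (adjusted p = 0.00986 and 0.101), the sign of the main probe set, and 1424848_at gave -0.39 in -/- arrays (adjusted p = 0.248). The second Kcnmb1 probe set, 1421401_at, differed by -0.07 in -/- and -0.28 in +/- arrays (adjusted p = 0.779 and 0.484). Among probe sets past the filter, the tissue call of each BK subunit thus rests on 1 probe set. The summed smooth muscle markers ran between 11427 and 18807 in brain -/-, 22459 and 39240 in brain +/-, 33544 and 37412 in aorta -/- and 33624 and 36675 in aorta +/-. By marker, 4 of 6 were called lower and 1 higher in brain than in aorta among -/- arrays (median log2 -3.13). Among +/- arrays 4 were called lower and 2 higher (median log2 -1.46). Of all genes, 29.8% were called lower and 35.3% higher in -/-, and 25.4% and 29.0% in +/-. The sums did not overlap between genotypes in brain, and bright probe sets weigh most in them. The part of these markers in the BK values was not tested.

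The 2 Kcnmb1 probe sets, annotated to the same gene, did not run together. On 1421401_at the brain -/- arrays read 110, 115, 125, 111 and 65.6 and the brain +/- arrays 36.6, 62.4, 52.1 and 17.7. In aorta the -/- arrays read 80.3, 116 and 139 and the +/- arrays 70.4, 49.5 and 37.7. All -/- arrays lay above all +/- arrays of the same tissue, the opposite direction to 1421400_at in brain, and brain +/- was at background on all 4 arrays. The files do not show which of the probe sets follows the Kcnmb1 transcript, so the gene's direction between genotypes is uncertain.

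**Figure D2:**
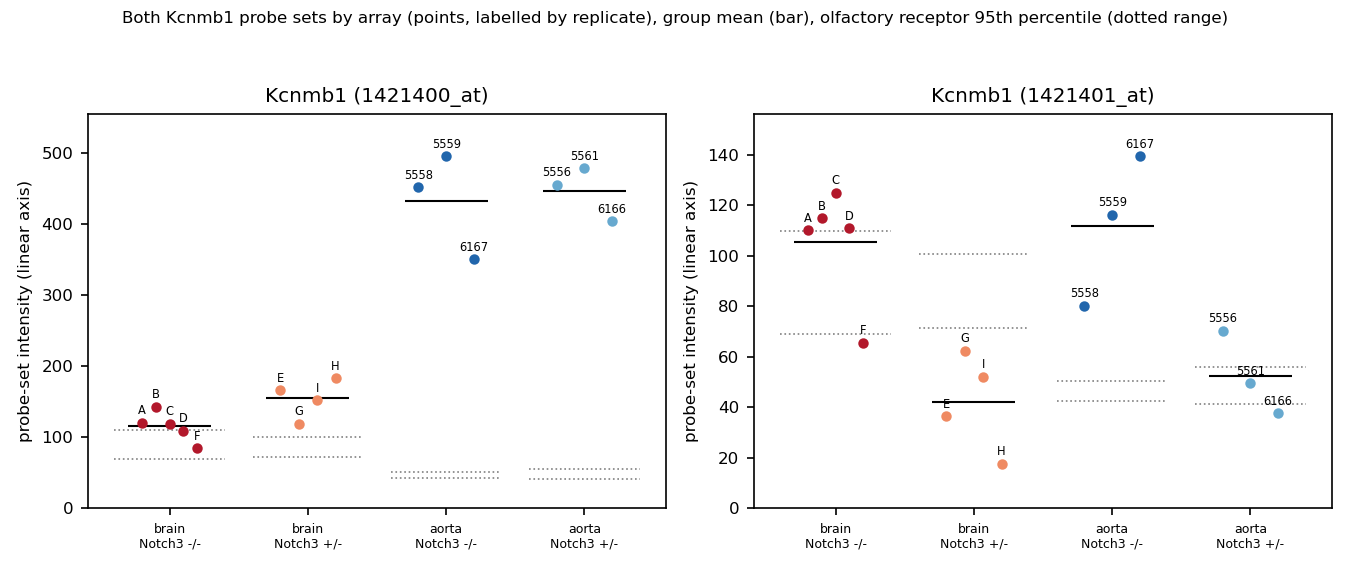
Intensity of both Kcnmb1 probe sets (linear vertical axis) on each array, by tissue and genotype, with replicate names, group means as bars and the lowest and highest olfactory receptor 95th percentile of the group as dotted lines. On 1421400_at the aorta arrays, at 350 or more, stand above the brain arrays, while on 1421401_at the -/- arrays stand above the +/- arrays in each tissue.

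The Kv1 channels stood above background mainly in brain. Kcna5, the Kv1.5 pore (1417680_at), read 59.4, 170, 72.3, 99.0 and 77.3 in brain -/- and 246, 162, 137 and 190 in brain +/-. In aorta it read 19.4, 24.3 and 12.4 in -/- and 46.7, 29.7 and 31.2 in +/-. It was above background on 3 brain -/- arrays, on all 4 brain +/- arrays and on 0 of the 6 aorta arrays. Kcna2, the Kv1.2 pore (main probe set 1439872_at), read 100, 84.9, 165, 173 and 170 in brain -/- and 104, 136, 172 and 227 in brain +/-. In aorta it read 39.3, 21.1 and 22.2 in -/- and 37.7, 48.8 and 14.0 in +/-. It was above background on 4 brain -/- arrays, 4 brain +/- arrays and 1 aorta array, a +/- one.

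Kcna5 was 3.08-fold higher in brain than in aorta among -/- arrays (log2 1.62, SE 0.27, limma, adjusted p = 0.000156) and 3.82-fold higher among +/- arrays (log2 1.93, SE 0.23, adjusted p = 4.31e-05). Kcna2 was 3.49-fold higher among -/- arrays (log2 1.80, SE 0.25, limma, adjusted p = 2.66e-05) and 3.61-fold higher among +/- arrays (log2 1.85, SE 0.31, adjusted p = 0.000525). Aorta was at background but for 1 array in Kcna2, so these folds rest on an aorta level near background. Brain -/- arrays A and C were at background for Kcna5, and array A for Kcna2. The -/- folds thus rest in part on a brain level at background too. A second Kcna2 probe set, 1440759_at, was higher in brain as well (log2 0.91 in -/-, limma, adjusted p = 0.00525, and 0.79 in +/-, adjusted p = 0.0180). It was above background on 3 brain -/-, 3 brain +/-, 1 aorta -/- and 2 aorta +/- arrays. Background itself was higher on brain arrays, and its part in this difference was not tested. The call in +/- was lost without aorta array 5561 (adjusted p = 0.0513) or 6166 (0.0945). The probe set 1422197_at was higher in brain -/- (log2 0.96, adjusted p = 0.0189) with overlapping arrays, a call that was lost without aorta array 5558 or 5559 (adjusted p = 0.107 each), and read -0.27 in +/- (adjusted p = 0.658). That probe set was above background on 1 brain -/-, 0 brain +/-, 1 aorta -/- and 1 aorta +/- array. The last, 1457911_at, was at background on all 15 arrays. Kcna2 is also a channel of neurons. The summed level of 8 neuronal markers ran between 787 and 1292 in brain -/-, 612 and 1678 in brain +/-, 198 and 221 in aorta -/- and 182 and 834 in aorta +/-, with 3 of the 8 above background on every brain -/- array and 4 on every brain +/- array, and with Tubb3, Gad1 and Slc17a7 at background on every brain array. Of the neuronal markers tested between tissues, 5 of 5 were called higher in brain among -/- arrays (median log2 2.47) and 2 of 6 among +/- arrays (median 1.37), with 0 lower. Of all genes, 35.3% and 29.0% were called higher. The filter kept a marker through whichever tissue it was bright in, so the share of markers called is no measure of the group. Among -/- arrays the unfiltered sums did not overlap between tissues and were higher in brain, the direction of Kcna2. Among +/- arrays the sums of the tissues overlapped, and the share called was near that of all genes. The part of the neuronal signal in the Kcna2 values was not tested.

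Kcnj2 and Kcnk3 were not measurable here. The Kcnj2 probe set, 1450503_at, lay between 0.637 and 5.12 over the 15 arrays and was at background on each. The main Kcnk3 probe set, 1425341_at, lay between 5.91 and 56.7 and was above background on 1 aorta +/- array only, and its other probe sets did not exceed 10.2. Neither gene passed the filter on dim probe sets in any comparison, so no statement on Kir2.1 or TASK-1 follows.

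**Figure D3:**
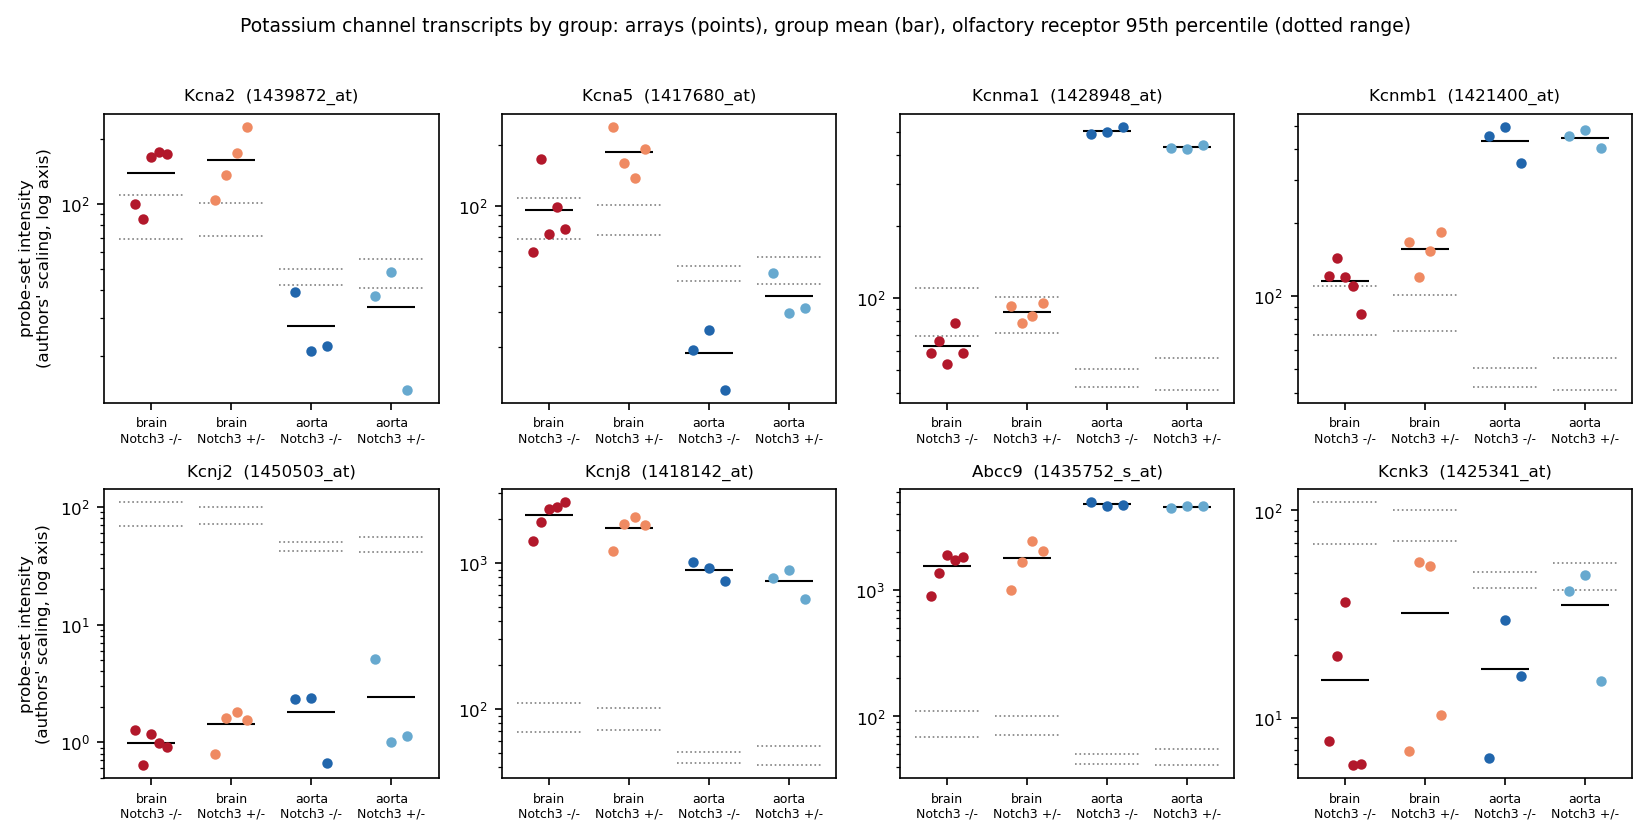
Intensity of the main probe set of each of the 8 genes (log vertical axis) on each array, by tissue and genotype, with group means as bars and the lowest and highest olfactory receptor 95th percentile of each group as dotted lines. Kcnj8 and Abcc9 stand far above the dotted lines in all 4 groups, Kcnma1 and Kcnmb1 do so in aorta, and Kcnj2 lies far under them.

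By gene, 6 of the 8 members were called between tissues in each genotype, 3 higher in brain (Kcna2, Kcna5, Kcnj8) and 3 lower (Kcnma1, Kcnmb1, Abcc9), at an adjusted p under 0.05 over 22519 probe sets. The tissues differed so widely that 62.5% of all probe sets tested were called among -/- arrays and 51.8% among +/- arrays (65.1% and 54.4% of genes at their brightest probe set). Of all genes, 35.3% were higher and 29.8% lower in brain among -/- arrays, against 29.0% and 25.4% among +/- arrays. The arrays of the 6 called members did not overlap between tissues, as for 62.9% of all genes in -/- and 58.8% in +/-. By probe set, 10 of 13 member probe sets tested were called among -/- arrays and 8 of 13 among +/- arrays. The filter kept a probe set through whichever tissue it was bright in, so the share called among those kept is no measure of the channels as a group. The median log2 difference of all probe sets tested was 0.11 in -/- and 0.07 in +/- arrays, small beside each called main probe set. Brain cells and aorta were extracted with different reagents, and tissue and extraction cannot be told apart.

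**Figure D4:**
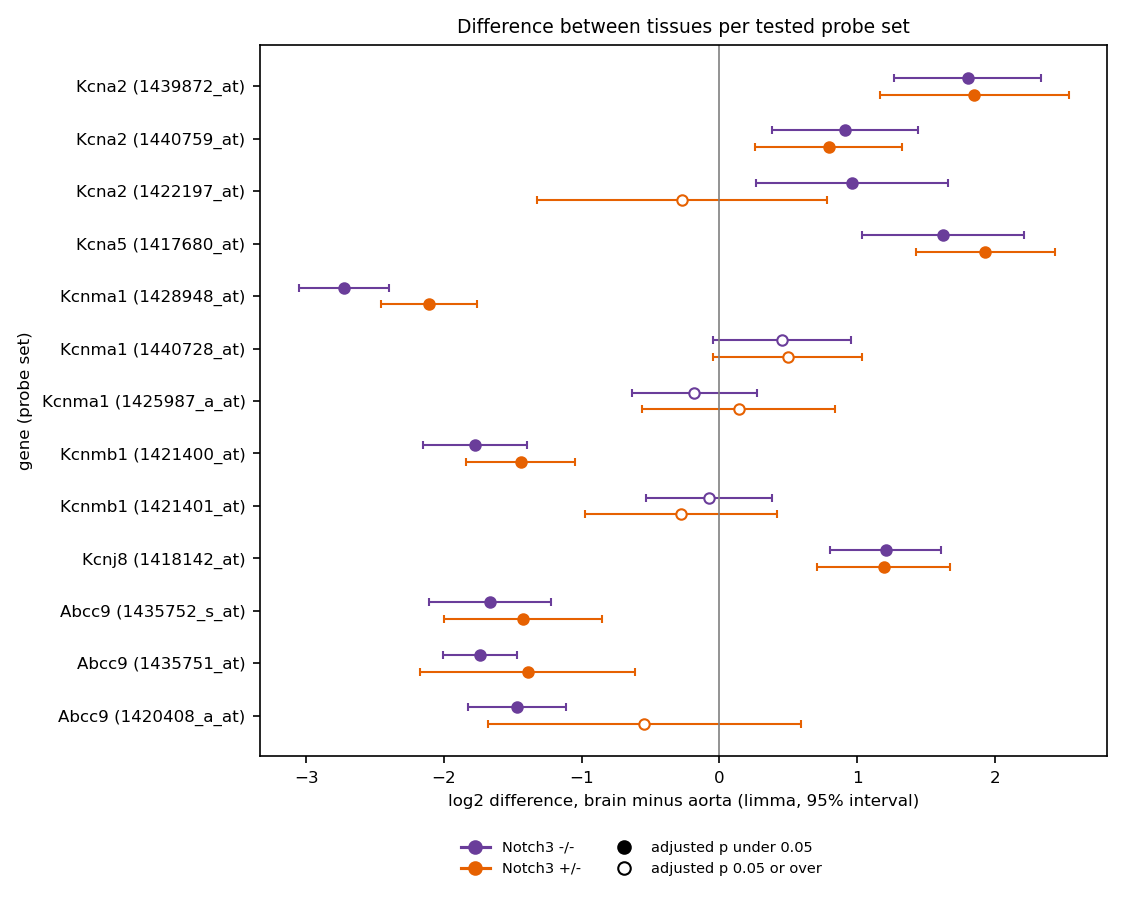
Log2 difference between brain and aorta (horizontal axis, brain minus aorta, with 95% intervals) for each member probe set tested, among Notch3 -/- and Notch3 +/- arrays; filled points have an adjusted p under 0.05. Kcna2, Kcna5 and Kcnj8 lie to the right at their main probe sets and Kcnma1, Kcnmb1 and Abcc9 to the left, in both genotypes.

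In brain, the comparison of -/- with +/- cells asked which channel transcripts of the sorted cells differ with Notch3. No member was called, at 0 of 6 genes and 0 of 13 probe sets tested, in a comparison where limma called 32 of 22519 probe sets (0.142%) and 0.191% of genes at their brightest probe set. An unadjusted p under 0.05 was found for 3 of the 13 probe sets and 2 of the 6 genes, against 9.39% of all probe sets and 9.77% of all genes tested. Kcna5 was lower in -/- by 0.89 on the log2 scale (SE 0.25, 95% interval -1.43 to -0.35, limma, unadjusted p = 0.00319, adjusted p = 0.291). It averaged 95.5 ± 43.9 in brain -/- (SD, n = 5) and 184 ± 46.6 in brain +/- (SD, n = 4). Array B, at 170, was the 1 -/- array that reached the +/- range, and without it the difference was -1.09 with an adjusted p of 0.0835. Kcna5 therefore had a large difference that did not pass correction over all probe sets.

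The BK subunits gave mixed values. Kcnma1 averaged 62.9 ± 10.0 in brain -/- (SD, n = 5) and 87.6 ± 7.71 in brain +/- (SD, n = 4), a log2 difference of -0.40 (95% interval -0.78 to -0.02, limma, adjusted p = 0.510). Its arrays did not overlap, as for 3.59% of all genes tested at their brightest probe set in either direction. Kcnmb1 at 1421400_at differed by -0.38 (95% interval -0.78 to 0.01, adjusted p = 0.541), with 115 ± 21.3 in -/- and 155 ± 27.0 in +/- brain. At 1421401_at it differed by 1.11 (95% interval 0.55 to 1.66, limma, unadjusted p = 0.000733, adjusted p = 0.168), with 105 ± 23.0 in -/- and 42.2 ± 19.5 in +/- brain. These arrays did not overlap, as for 3.3% of probe sets, and the +/- arrays were all at background. With the spread estimated over all 15 arrays the adjusted p was 0.0473, a setting that raised all brain calls from 32 to 130. Under the other settings run, the adjusted p of this probe set in limma lay between 0.130 and 0.391. Of the smooth muscle markers, 3 of 6 were called lower and none higher in the same comparison, with a median log2 difference of -0.95, and their part in the channel values was not tested.

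The KATP subunits and Kcna2 had no call in brain, with small differences at their main probe sets. Kcnj8 averaged 2132 ± 480 in brain -/- (SD, n = 5) and 1734 ± 367 in brain +/- (SD, n = 4), a log2 difference of 0.29 (95% interval -0.15 to 0.73, limma, adjusted p = 0.687). Abcc9 averaged 1547 ± 415 in -/- and 1791 ± 618 in +/- brain, a difference of -0.19 (95% interval -0.75 to 0.38, adjusted p = 0.865). Its other probe sets, 1435751_at and 1420408_a_at, gave -0.20 and -0.76 (adjusted p = 0.861 and 0.589). Kcna2 averaged 139 ± 42.6 in -/- and 160 ± 52.7 in +/- brain, a difference of -0.18 (95% interval -0.72 to 0.35, adjusted p = 0.852). Its probe set 1422197_at gave the opposite sign, at 0.47 (95% interval -0.35 to 1.29, adjusted p = 0.738). These intervals leave room for a change of 1.5-fold or more in at least 1 direction. Over the 6 genes tested, at their main probe sets, 5 were lower and 1 higher, with a median of -0.28, against a median of 0.00 over all 12014 genes. Among the 5, Kcna2, Kcnma1 and Kcnmb1 each had another probe set of opposite sign (0.47 at 1422197_at, 0.18 at 1440728_at and 1.11 at 1421401_at).

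In aorta no probe set of the 22519 passed in limma (0.0%), although 980 had an unadjusted p under 0.05, and so 0 members were called. The smallest p among members was that of Kcnmb1 at 1421401_at, with 112 ± 29.7 in -/- and 52.5 ± 16.6 in +/- aorta (SD, n = 3 each), a log2 difference of 0.90 (95% interval 0.39 to 1.42, limma, unadjusted p = 0.00334, adjusted p = 0.871). Its arrays did not overlap, as for 9.47% of probe sets. At 1421400_at Kcnmb1 differed by -0.05 (95% interval -0.37 to 0.26). Kcnma1 averaged 504 ± 18.6 in -/- and 429 ± 8.07 in +/- aorta, a log2 difference of 0.22 (95% interval 0.02 to 0.42, unadjusted p = 0.0334, adjusted p = 0.999) with arrays that did not overlap, as for 9.28% of all genes tested. Kcnj8 differed by 0.27 (95% interval -0.12 to 0.67) and Abcc9 by 0.06 (-0.07 to 0.19). Kcna5 and the main probe set of Kcna2 did not pass the filter on dim probe sets in aorta and were not tested there. Kcna5 was at background on every aorta array. Its -/- arrays all lay under its +/- arrays, and without the filter the difference was -0.58 (limma, unadjusted p = 0.0322, adjusted p = 0.9999).

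**Figure D5:**
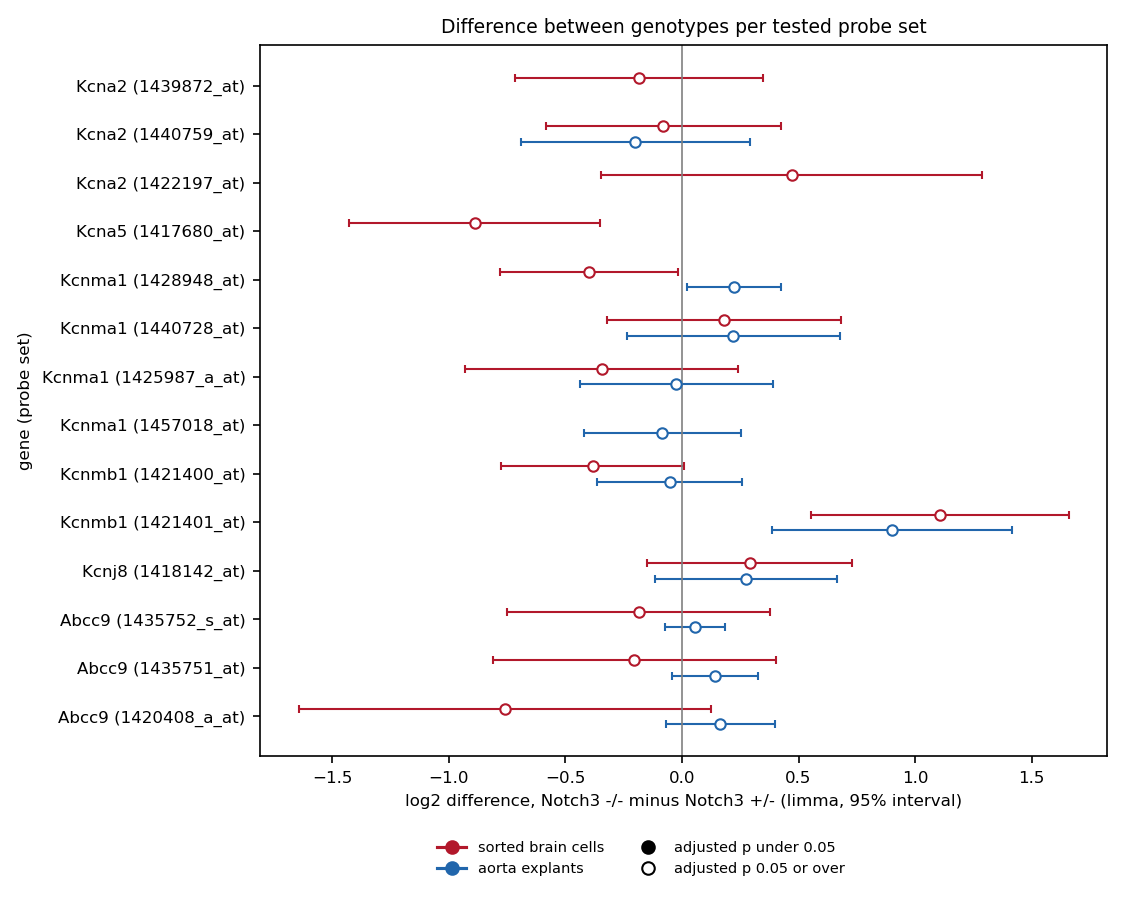
Log2 difference between genotypes (horizontal axis, Notch3 -/- minus Notch3 +/-, with 95% intervals) for each member probe set tested in sorted brain cells and in aorta explants; open points have an adjusted p of 0.05 or over, and every point is open. Kcna5 and Kcnmb1 (1421401_at) lie farthest from 0 in brain, on opposite sides.

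Whether the genotype difference itself varied between tissues was tested as 1 term over all 15 arrays, where 4 of 22519 probe sets were called (0.0178%) and no member was. Kcnma1 had the largest such value relative to its error, at -0.62 (brain minus aorta, SE 0.20, 95% interval -1.04 to -0.20, limma, unadjusted p = 0.00617, adjusted p = 0.813): its -/- arrays lay under the +/- arrays in brain and above them in aorta. Its brain values were at background on all but 1 array of each genotype, so that term too rests on a brain level near background. For Kcnmb1 at 1421401_at the value was 0.20 (95% interval -0.61 to 1.01), with -/- arrays above +/- arrays in both tissues. Kcnj8 gave 0.02 (95% interval -0.63 to 0.66) and Abcc9 -0.24 (-0.99 to 0.51), intervals that do not separate the tissues. For Kcna5 the value was -0.31 (95% interval -1.10 to 0.48, limma, adjusted p = 0.997). Because Kcna5 was at background on all 6 aorta arrays, the aorta side of that term rests on background.

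The other potassium channel genes on the array were taken as all symbols beginning with Kcn, plus Abcc8, which gave 78 genes and 152 probe sets and includes accessory proteins and a few noncoding transcripts. In brain, 0 of 40 tested were called between genotypes, with 4 at an unadjusted p under 0.05 (9.77% of all genes were) and a median of -0.02. In aorta 0 of 26 were called and for the difference between tissues 0 of 36. Brain set against aorta gave 25 of 35 called among -/- arrays (71.4%, 18 higher and 7 lower) and 22 of 36 among +/- arrays (61.1%, 13 higher and 9 lower). These shares were near the 65.1% and 54.4% of all genes called.

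Those with the smallest p between tissues included channels known from other brain cells, all higher in brain. Kcnj13 (Kir7.1, known from choroid plexus) averaged 1113 ± 268 in brain -/- and 17.4 ± 1.03 in aorta -/-, and 1308 ± 838 in brain +/- and 20.3 ± 3.97 in aorta +/-. Kcnj10 (Kir4.1, the main glial inward rectifier) averaged 871 ± 353 in brain -/- and 23.1 ± 11.9 in aorta -/-, and 744 ± 394 in brain +/- and 22.7 ± 12.6 in aorta +/-. Kcne2 and Kcnk1, an accessory subunit and a pore of the background channel family, were also higher in brain, by 4.59 and 4.09 on the log2 scale in -/- and 4.30 and 3.81 in +/- arrays. On the aorta side, Kcnj15 (Kir4.2) averaged 9.46 ± 6.38 in brain -/- and 606 ± 108 in aorta -/-. Kcnab1, a beta subunit of Kv1 channels, averaged 164 ± 37.7 in brain -/- and 1747 ± 67.2 in aorta -/-, and 306 ± 151 in brain +/- and 1588 ± 27.2 in aorta +/-. Its log2 difference was -3.32 in -/- arrays (limma, adjusted p = 1.97e-09), the opposite direction to the Kv1 pores Kcna2 and Kcna5. Lower in brain among the 4 with the smallest p were also Kcnh2 and Kcnc4 in -/- arrays and Kcnt2 and Kcnq5 in +/- arrays.

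The genes whose log2 values ran most like a member over the 9 brain arrays, out of 12014, were listed as a description. The top few of so many genes over so few arrays reach a high r by chance alone, and no chance level was computed. Pearson's r over arrays that share a tissue and 2 genotypes was 0.943 for Kcna5 with Rdh5 and with Tgfb3, and 0.929 with Tesc. For Kcnma1, at background on all but 1 brain array of each genotype, the nearest were Csrp1 (0.943), Gpr20 (0.939) and Ehd3 (0.919). Kcnmb1 at 1421400_at ran nearest to Gps2 (0.968), Atf6b (0.959) and Tpcn1 (0.958), Kcnj8 to Ugt8a (0.949), Dhrs7 (0.925) and Lama2 (0.920), and Abcc9 to Snx19 (0.969), Osgep (0.946) and Cdc42ep1 (0.928). Kcna2 ran nearest to Ppp1r21 (0.963), Igsf1 (0.962) and Agt (0.948). No gene was among the 3 nearest of more than 1 member in brain. Over the 6 aorta arrays, among 11632 genes, the nearest were Lrrcc1 for Kcnma1 (0.987), Fkbp3 for Kcnmb1 (0.996), Nbea for Kcnj8 (0.996) and Hagh for Abcc9 (0.997), none of them on the brain lists.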

How the data were processed

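Arrays of 15 samples held linear intensity per probe set, which the authors brought to a common target of 150, as their design text states (15 µg of cRNA for each brain sample); the 2% trimmed mean was 150 throughout. The sources used here do not state how probes were summarised, corrected for background or called present. The number of arrays limits the precision. Brain RNA came from a column kit and aorta RNA from Trizol and columns, per the labels. Of 45101 probe sets, 34958 carried 1 symbol, 932 several and 9211 none. Entrez identifiers matched 34754 of those with 1 symbol to a current symbol, changed or not, and 204 kept the symbol given.

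The 8 members, the marker lists and the tests were chosen with earlier results of these data known. On the log2(value + 16) scale used, folds understate changes of dim probe sets. Control probe sets (64) were dropped, and each fit tested the brighter part of the rest, cut at the median of mean log2 values (22519). The test was limma 3.58.1 under R 4.3.3: lmFit, then two-sided eBayes with a trend on intensity, and Benjamini-Hochberg adjustment over the probe sets tested, with calls at 5%. Genotypes were compared within 9 brain and within 6 aorta arrays, tissues within 8 Notch3 -/- and within 7 Notch3 +/- arrays, and the difference of differences over 15. The fits were tested on simulated data. Named genes were all members at every probe set, other potassium channel genes past 5% (the 4 smallest p in each direction where over 5 passed), and the 3 genes of highest r per member. Alternatives were other pseudocounts (1, 32), no filter, quantile normalization, no trend, array weights, all 15 arrays in the fit, each array left out and, in aorta, the 55xx and 61xx numbers as a block.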

Additional observations from a re-analysis of the deposited data

Results flagged for a closer look

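In 40 checks of the highest and lowest array within the brain groups, 2 arrays stood far from the rest, and chance marks about 1 in 20 such checks. For Kcnmb1 at 1421401_at, brain -/- array F read 65.6 while the other -/- arrays read 110 to 125. Without array F the log2 difference between genotypes in brain was 1.24 (limma, adjusted p = 0.130), against 1.11 with it (adjusted p = 0.168). For Kcnma1 at 1457018_at, a dim probe set that was not tested in brain, +/- array I read 16.3 while the others read 35.4 to 37.9, all at background.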

How the results depend on the processing

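No paired analysis was possible because no replicate name is shared between groups. Under every alternative run, 0 members were called between genotypes in brain, in aorta and for the difference between tissues at their brightest probe set, and 6 were called between tissues in each genotype. Of the values of single member probe sets with all arrays kept, 427 kept direction and side of the threshold, 7 changed sign, 1 gained a call and 1 lost it. The total of brain calls was 32, and became 18 with no filter (more probe sets tested), 52 with array weights, 130 with all 15 arrays in the fit and between 10 and 38 with 1 array left out (10 without +/- array H, 14 without -/- array D, 15 without +/- array G, 21 without -/- array C). The aorta total of 0 became 1 with all 15 arrays and ran between 0 and 7 with 1 array left out (7 without 6167 or 5556, 1 without 5559), and that for the difference between tissues was 4, 13 with array weights, and 0 to 7. With all 15 arrays 1 other potassium channel gene was called in brain, Kcnt2, Kcnmb1 at 1421401_at passed (adjusted p = 0.0473) with the same log2 value of 1.11, and Kcna2 at 1422197_at no longer passed between tissues in -/- arrays (log2 0.96, adjusted p = 0.0591). With array weights the sign turned for values near 0: Kcna2 in brain (0.019 at 1439872_at and 0.056 at 1440759_at), Abcc9 at 1435751_at in brain (0.024), Kcnma1 at 1425987_a_at between tissues in +/- (-0.098) and Kcna2 at 1439872_at for the difference between tissues (0.063). Quantile normalization turned that Kcnma1 value to -0.018 and Kcnj8 for the difference between tissues to -0.00975. The cause was not tested. With 1 array left out the sign turned within these log2 ranges: in brain, Kcna2 at 1440759_at -0.21 to 0.059 and Abcc9 at 1435751_at -0.52 to 0.068; in aorta, Kcnma1 at 1425987_a_at -0.15 to 0.094 and Kcnmb1 at 1421400_at -0.15 to 0.086; between tissues, Kcna2 at 1422197_at -0.42 to 0.12 and Kcnma1 at 1425987_a_at -0.086 to 0.40 in +/-, and Kcnmb1 at 1421401_at -0.26 to 0.080 in -/-; for the difference, Kcna2 -0.28 to 0.28 at 1439872_at and -0.057 to 0.30 at 1440759_at, Kcnma1 at 1440728_at -0.19 to 0.096, Kcnmb1 at 1421401_at -0.035 to 0.37 and Kcnj8 -0.15 to 0.20. Kcna5 in brain stayed between -1.09 and -0.75 (adjusted p between 0.0835 and 0.536). Low signal limits Kcna5 and Kcna2 in aorta, Kcna5 on brain -/- arrays A and C, Kcnma1 in brain, and Kcnj2 and Kcnk3 in all groups.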

Other observations

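Outside the naming rule and chosen after their values were seen, 2 of the 40 other potassium channel genes tested had brain arrays that did not overlap between genotypes, a share near the 3.59% of all genes. Kcnt2, a sodium-activated potassium channel, read 94.8, 126, 147, 99.6 and 106 in brain -/- and 64.3, 71.0, 35.9 and 21.1 in brain +/- (log2 1.10, limma, adjusted p = 0.159). Kcnj11, the Kir6.2 pore of KATP channels, read 658, 404, 548, 485 and 419 in brain -/- and 764, 718, 696 and 790 in brain +/- (log2 -0.57, adjusted p = 0.304). Kcnab1 averaged 164 ± 37.7 in brain -/- and 306 ± 151 in brain +/- (log2 -0.74, adjusted p = 0.425) with overlapping arrays. None of the 3 passed.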
